A study of Caenorhabditis elegans with 4 samples.

Results

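Chromosome III of Caenorhabditis elegans carried 296 of the 2069 MAU-2 sites mapped in wild-type embryos. A site here is a set of peaks from the deposited lists that share at least 1 bp with one another, directly or through a further peak, on this chromosome. MAU-2 was precipitated with a rabbit polyclonal antibody from mixed-stage embryos of the N2 strain, grown at 20 °C as a population of both males and hermaphrodites, and the bound DNA was sequenced (chromatin immunoprecipitation sequencing, ChIP-seq). All samples carried the same genotype and received the same treatment, with cross-linking of live embryos in 2% formaldehyde for 30 minutes. The study comprised 2 ChIP replicates, from which 2 peak lists were deposited together with 1 list for the whole series (the series-wide list) and 2 samples of input DNA, which were not analysed here. Whether separate cultures gave rise to the replicates is not stated in the labels. Whole embryos were used, so each peak is a signal over many cell types and stages.

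MAU-2 works with SCC-2 to load cohesin, a ring-shaped complex, onto chromatin. Cohesin holds sister chromatids together until they separate and also folds DNA into loops. The chromosomes of this nematode are holocentric, meaning that spindle attachment is spread along their length, and the autosomes have gene-dense centres flanked by arms that are richer in repeats. The coordinates below are on build WS220, counted from 1. No gene is named at any site, because no annotation of that build was used here.

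On chromosome III the lists differed in their number of peaks, and the density of each list is given beside that of the other nuclear chromosomes. Replicate 1 held 266 peaks, replicate 2 held 105 and the series-wide list held 152. This corresponds to 19.3 replicate 1 peaks per Mb on III, compared with 18.6 per Mb on the other nuclear chromosomes. For replicate 2 the densities were 7.62 on III and 7.60 elsewhere, and for the series-wide list 11.03 on III and 9.94 elsewhere. Without the dense stretch described below, III had 15.5 peaks per Mb in replicate 1, 6.93 in replicate 2 and 8.97 in the series-wide list. These were below the values elsewhere, from which no dense stretch was left out. Peak widths on III had a median of 343 bp in replicate 1, 493 bp in replicate 2 and 287.5 bp in the series-wide list. Peaks covered 0.948% of III in replicate 1, 0.625% in replicate 2 and 0.557% in the series-wide list. Each peak carries a score assigned by the authors' peak caller. In the replicate lists the scores on III started at 50.07 and 50.16 and ended at exactly 3100, a value that 7 peaks of replicate 1 and 2 peaks of replicate 2 shared. Series-wide scores on III lay between 1.33 and 64.91. The series-wide scores are therefore on another scale than the replicate scores, and they were compared with those only by rank. The lists give no read numbers, so depth is unknown and no binding level was compared between samples.

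Of the 296 sites, 75 were present in all 3 lists, which is 25.3% (exact Clopper-Pearson 95% interval 20.5 to 30.7). The same share over all nuclear sites was 25.1%. A further 39 sites were in a pair of lists and 182 (61.5%) in a single list. The largest class was found in replicate 1 only, with 146 sites. The series-wide list alone held 32 sites, and replicate 2 alone held 4. Among sites in a pair of lists, 20 were shared by the series-wide list and replicate 1, 13 by the series-wide list and replicate 2, and 6 by the replicates without the series-wide list. Shares of the single-list and pair classes over all nuclear sites were not computed, so these counts are not read as particular to III. Over all chromosomes replicate 1 was also the longest list, with 1880 peaks, against 1018 in the series-wide list and 762 in replicate 2.

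Sites in more lists were wider and scored higher. The median width was 658 bp for sites in all 3 lists, 440 bp for those in a pair of lists and 242 bp for those in a single list. In replicate 1, the sites present in all 3 lists had a median score of 428, against 84.6 for the sites found in that list alone, whose highest score was 288. In the series-wide list the corresponding medians were 15.3 and 3.55. These classes differ in whether other lists called the same place, and width itself raises the chance of an overlap, so the width values are a description. A site also spans all its peaks, so joining peaks of more lists widens it. Among the 75 sites in all 3 lists, 61 consisted of exactly 1 peak from each list. The peaks at these 61 sites had median widths of 321 bp in the series-wide list, 550 bp in replicate 1 and 448 bp in replicate 2. Sites in that list only had medians of 188, 252.5 and 291 bp in the same order, the last over 4 sites. Over the 75 sites the stretch covered by all lists at once had a median of 312 bp, or 56.4% of the site's width. At 1 site, from 318523 to 319106, no base was common to all lists, and the lists were joined through the replicate 1 peak.

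**Figure D1:**
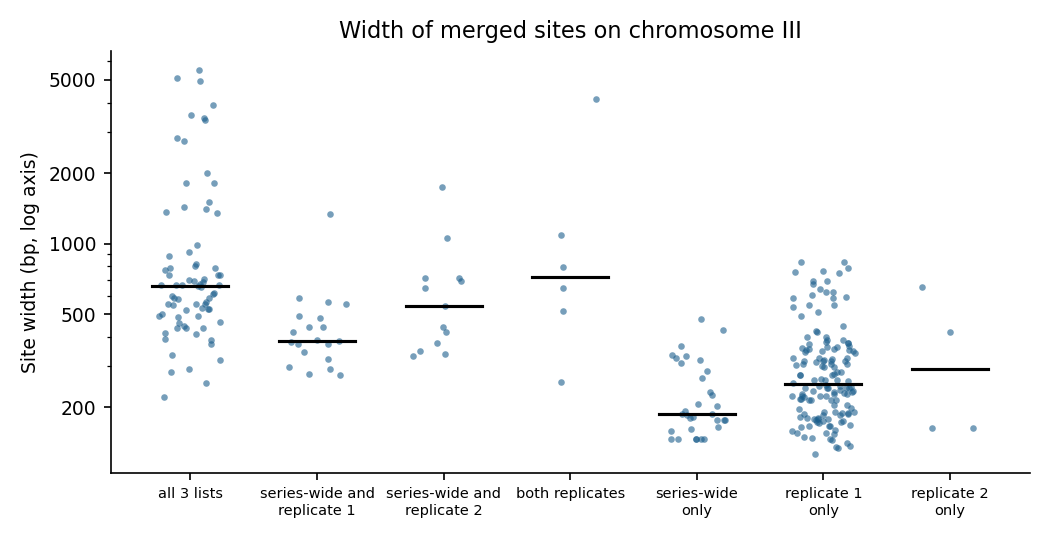
Width in bp, on a log axis, of each of the 296 merged sites on chromosome III, grouped by the lists that hold the site. Each point is 1 site and the black line is the median, which was 658 bp for sites in all 3 lists and 252.5 bp for sites in replicate 1 only.

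The first comparison asked whether the lists recovered one another's peaks on III as often as on the other 5 nuclear chromosomes. No difference was detected for any list. Of the 152 series-wide peaks on III, 85 overlapped a peak in both replicate lists, or 55.9% (47.6 to 64.0), against 61.2% (57.8 to 64.4) of 860 peaks elsewhere (two-sided Fisher's exact test, p = 0.24, adjusted p = 0.83). The share over all nuclear series-wide peaks was 60.4%. In replicate 1, 98 of 266 peaks on III (36.8%, 31.03 to 42.9) were found in replicate 2, against 36.7% (34.3 to 39.1) of 1613 peaks elsewhere (Fisher's exact test, p = 1, adjusted p = 1, background 36.7%). In replicate 2, 88 of 105 peaks on III (83.8%, 75.3 to 90.3) were found in replicate 1, against 83.0% (79.9 to 85.8) of 657 peaks elsewhere (Fisher's exact test, p = 0.89, adjusted p = 1, background 83.1%). The p-values were adjusted by Benjamini-Hochberg over 4 tests, and they treat neighbouring peaks as independent. The differences were -5.24, 0.14 and 0.86 percentage points, and the intervals of the shares on III leave room for differences of several points in either direction.

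**Figure D2:**
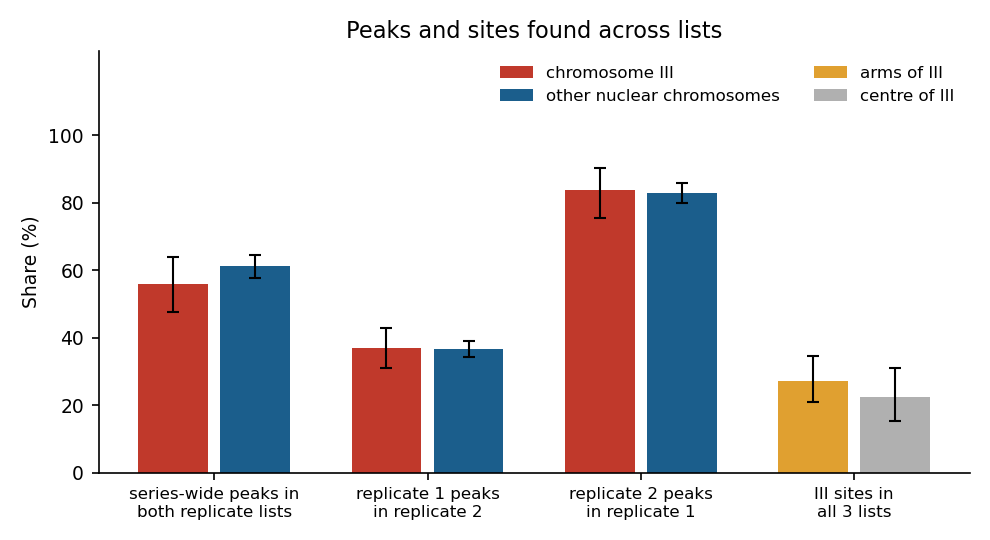
Share in percent of peaks recovered in other lists, for chromosome III beside the other nuclear chromosomes, and of sites on III present in all 3 lists, for the arms beside the centre. Bars are shares and error bars are exact Clopper-Pearson 95% intervals, which overlap within each of the 4 pairs.

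Recovery on III was more frequent among higher-scoring peaks of each list. In replicate 1, 58 of the 67 peaks in the highest score quartile were found in replicate 2 (86.6%, 76.03 to 93.7), and 6 of the 67 in the lowest (8.96%, 3.36 to 18.5). The middle quartiles had 17 of 66 each, or 25.8%. For series-wide peaks the share found in both replicates went through 18.4%, 44.7%, 65.8% and 94.7% from the lowest to the highest quartile, with 38 peaks in each. Replicate 2 peaks were recovered at 70.4% in their lowest quartile and at 96.2% in their highest. Peaks that scored at least 224.29 in replicate 1 thus formed a set that the other replicate mostly called as well. The same quartiles were not taken on the other chromosomes, so this is not read as particular to III. Higher-scoring peaks on III were also wider, and width itself raises the chance of an overlap. Spearman's rho between width and score was 0.81 in replicate 1, 0.71 in the series-wide list and 0.64 in replicate 2.

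The 20 highest-scoring sites in all 3 lists, ranked by series-wide score, comprised sharp sites and broad regions. Of these, 12 had a width of 493 to 920 bp and 7 exceeded 2000 bp. In the left arm lay 10, in the centre 7 and in the right arm 3. The top site of the chromosome, from 10989250 to 10990050 in the right arm, had a series-wide score of 64.91, a replicate 1 score of 2332.71 and a replicate 2 score of 1100.06. Those scores ranked 16, 60 and 44 in whole lists of 1018, 1880 and 762 peaks. The second, from 10224482 to 10225888, scored 63.80, 1649.88 and 496.92 in the same order of lists. The highest site of the left arm, from 4470476 to 4471183, scored 63.75, 1111.93 and 582.79. The highest of the centre, from 7444263 to 7448172, scored 55.07 with 3100 in both replicates, and it lies inside the dense stretch described below. Among the narrow sites, the one from 8937382 to 8938073 scored 51.09, 1442.61 and 659.15, and the one from 931090 to 931788 scored 44.49, 1401.44 and 812.14. The lowest of the 20 scored 31.82 and the next site after them 31.72, so the boundary of this set is arbitrary.

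Some of the high-scoring sites were grouped around the border between left arm and centre. A span of 989396 bp from 4369156 to 5358551 takes 7.18% of the chromosome and held 8 of the 20 highest sites. It was chosen after the values were seen, for its number of these sites. It contained 17 sites in all, of which 11 were in all 3 lists and the other 6 in replicate 1 only. The 11 sites had a median series-wide score of 38.8 and a lowest score of 24.99, against a median of 15.3 over the 75 sites. This contrast follows from choosing the span by series-wide rank, and the 75 sites include the 11. Within the span, the site from 4426542 to 4427208 scored 46.98, that from 5210953 to 5211686 scored 41.93, that from 4369156 to 4369974 scored 40.31, and that from 5031186 to 5031956 scored 38.79. The lowest scores among these 4 were 1458.19 in replicate 1 and 554.45 in replicate 2. Among all 11 sites they were lower, with 400.41 in replicate 1 (from 5294648 to 5295242) and 286.23 in replicate 2 (from 4413932 to 4414459). The span ends with the widest site of the chromosome, from 5353036 to 5358551.

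Broad regions were few but took a large part of the covered bases. Chromosome III had 10 sites wider than 2000 bp, with 24.7% of the bases under all sites, and 9 of them were in all 3 lists. Peaks wider than 2000 bp on III numbered 8 of 152 in the series-wide list, 7 of 266 in replicate 1 and 8 of 105 in replicate 2. On the other nuclear chromosomes they numbered 40 of 860, 55 of 1613 and 51 of 657 in the same order. Their share of the bases under sites was not computed there, so broad regions are not read as particular to III. Of the 10 broad sites, the left arm and the centre of III held 5 each and the right arm held 0. The widest, of 5516 bp, was called as 1 peak in each replicate and as 2 adjoining peaks in the series-wide list, with 5412 bp common to all lists. The next were 5079 bp from 2077595 to 2082673, 4962 bp from 2496948 to 2501909, 4134 bp from 6570325 to 6574458, and 3910 bp from 7444263 to 7448172. The region of 4962 bp scored 3100 in both replicates and 36.09 in the series-wide list, and its lists shared 4737 bp.

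The lists disagreed at a few of these regions. The region of 5079 bp was a peak of 5072 bp with a score of 1828.43 in replicate 2 and of 4988 bp in the series-wide list, where it scored 38.98. Replicate 1 held there only a peak of 157 bp with a score of 54.01, near the lowest score of that list. It counts as present in all lists by the overlap rule, although its replicate 1 score ranked 1757 of 1880. The opposite case lay from 6566877 to 6574458, where a region of 3437 bp and one of 4134 bp were neighbours. In the first, 5 peaks of replicate 1 and 2 of replicate 2 covered 2894 and 2975 bp, whereas the only series-wide peak was 171 bp wide and scored 3.05. In the second, 3 peaks of each replicate scored up to 589.95 and 113.40, and the series-wide list had none.

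Scores of matched replicate peaks followed the same order in both replicates. On III, 88 replicate 2 peaks overlapped a replicate 1 peak, with a median of 39.2 bp between midpoints, and 66 pairs lay within 100 bp of each other. Spearman's rho between their scores was 0.79 across these 88 pairs, given as a description because peaks of a library share its depth and input. The replicate 1 score was the higher one in 75 of 88 pairs, which says nothing of binding since the libraries' depths are unknown. Across the 75 sites in all lists, the series-wide score had a rho of 0.75 with the replicate 1 score and 0.85 with the replicate 2 score. Whether the series-wide list was called on the pooled replicates is not stated. Its overlap and score order with the replicate lists may therefore rest partly on the same reads.

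**Figure D3:**
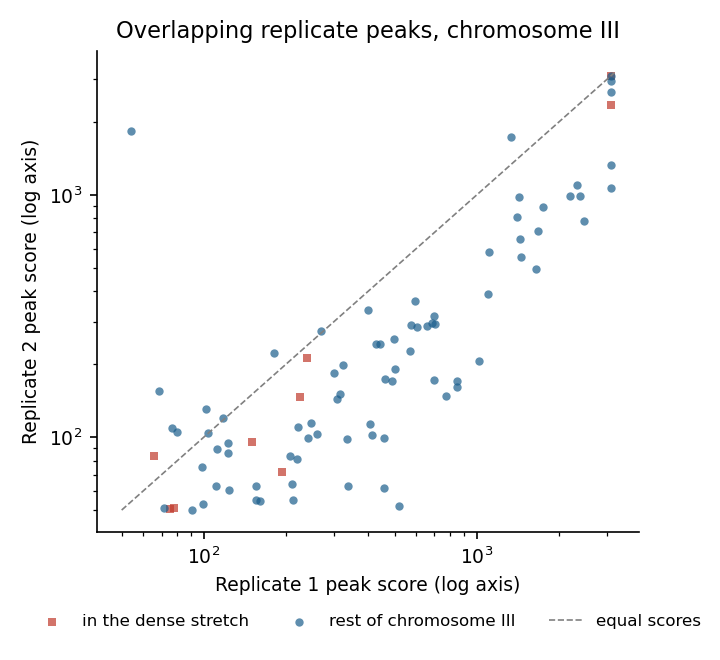
Score of each of the 88 pairs of overlapping peaks on chromosome III, with replicate 1 on the horizontal and replicate 2 on the vertical log axis, for pairs in the dense stretch (squares) and on the rest of III (circles). The dashed line marks equal scores. Most pairs lie below it, and the isolated point at upper left is the region with scores of 54.01 and 1828.43.

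A second comparison set the arms (the first and last 33.3% of the chromosome, up to position 4594577 and beyond 9189154) against the centre. Sites were less dense in the arms, with 19.2 per Mb, than in the centre, with 26.1 per Mb, and this order turned round without the dense stretch described below. Then the arms had 19.2 and the centre 15.5 sites per Mb. The share of sites in all 3 lists was 27.3% in the arms (48 of 176, 20.8 to 34.5) and 22.5% in the centre (27 of 120, 15.4 to 31.02), a difference that the two-sided Fisher's exact test did not detect (p = 0.41, adjusted p = 0.83). Without the dense stretch the centre's share was 27.1% (19 of 70), and the difference was 0.13 points. When replicate 2 was not required, that is for sites in the series-wide list and replicate 1, the difference of 4.77 points over all sites turned to -4.89 points. When replicate 1 was not required, it was 9.36 points (Fisher's exact p = 0.093, adjusted p = 0.37). Both settings kept the 176 and 120 sites merged from all 3 lists, so sites in the list not required still counted in the totals.

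Taken separately, the left arm held 81 sites, of which 30 (37.0%, 26.6 to 48.5) were in all 3 lists, and the right arm held 95, of which 18 (18.9%, 11.6 to 28.3) were. No test was planned for this contrast, and none is given. Sites in all lists numbered 6.53 per Mb in the left arm, 5.88 in the centre and 3.92 in the right arm. Outside the dense stretch the centre had 4.20 per Mb. Scores over these sites gave no single order of the regions. The median replicate 1 score was 631 in the left arm, 299 in the centre and 360 in the right arm. The median replicate 2 score was 271, 212 and 149 in the same regions, and the median series-wide score was 16.7, 15.3 and 13.0. In the centre outside the dense stretch the medians were 428 in replicate 1, 293 in replicate 2 and 23.1 in the series-wide list, and those of replicate 2 and the series-wide list were above the left arm's. The right arm held 19 of the 32 sites found in the series-wide list only, with 8 of them in a run of 10120 bp from 13074947 and 6 in a run of 4443 bp from 11430705. It also held 8 of the 13 sites shared by the series-wide list and replicate 2.

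**Figure D4:**
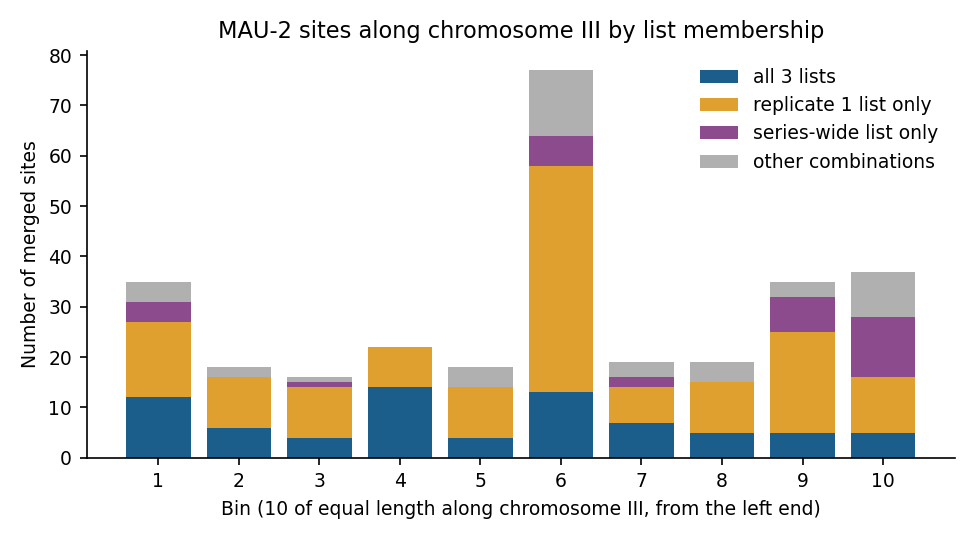
Number of merged MAU-2 sites in 10 bins of equal length along chromosome III, from the left end, stacked by list membership. Bin 6 reaches 77 sites, 50 of them in the dense stretch, and bin 10 has the most sites found in the series-wide list only (12).

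The central dense stretch was taken as the window of 100 kb with most sites. It ran from 7405321 to 7477210 and held 50 sites in 71890 bp, which is 16.9% of all sites on III. Sites covered 35.4% of the stretch, compared with 0.979% of the rest of the chromosome. The median gap between neighbouring sites was 269 bp inside and 20182 bp outside. Inside, 43 of the 49 gaps were under 1000 bp, against 65 of 246 on the rest of III. The count of 50 sites, and their share of all sites, thus hold for merging at an overlap of 1 bp. Merging within 1000 bp would join most of them, and it left 188 sites on III. Within it, 48 of the 50 sites lay in the first 46545 bp, up to 7451865, with no gap of 5 kb or more between them. A density chosen as the highest has no test.

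Most sites of the stretch had a replicate 1 peak, as did most sites on the rest of III. Replicate 1 was present at 44 of the 50 sites of the stretch (88%), against 203 of the 246 sites on the rest of III (82.5%). The series-wide list was present at 24 (48%), against 116 (47.2%), and replicate 2 at 9 (18%), against 89 (36.2%). By class, 26 sites were in replicate 1 only, 10 in replicate 1 and the series-wide list, 8 in all 3 lists, 5 in the series-wide list only and 1 in the series-wide list and replicate 2. The share in all 3 lists was 16% in the stretch (7.17 to 29.1) and 27.2% on the rest of III (21.8 to 33.3), a contrast that was not tested because the stretch was picked from these data.

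Apart from its strongest site, the stretch had low series-wide and replicate 2 scores. Over all sites with a replicate 1 peak, its median replicate 1 score was close to that outside, but among sites in all 3 lists it was lower. Leaving out the region from 7444263 to 7448172, the series-wide scores ran from 1.50 to 7.58 with a median of 3.78, against a median of 8.85 outside the stretch. The replicate 1 scores ran from 51.71 to 276.15 with a median of 109.8, against 118.0 outside. The replicate 2 scores, at only 8 sites, ran from 50.70 to 211.56 with a median of 77.7, against 156 outside. Among sites in all 3 lists, the median replicate 1 score was 150 at 7 sites of the stretch and 490 at 67 sites outside. The replicate 2 medians of these sites were 83.3 and 206, and the series-wide medians 5.93 and 16.87. The strongest site lies near the end of the crowded part that stops at 7451865. It is 3910 bp wide, with 3808 bp common to all lists, and scored 3100 in both replicates.

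The other 7 sites of the stretch in all 3 lists were modest. The site from 7416281 to 7418088 had a series-wide score of 6.71, a replicate 1 score of 249.11 and a replicate 2 score of 211.56. That from 7424575 to 7426571 scored 5.93, 224.29 and 146.63, and that from 7431034 to 7432844 scored 6.39, 150.38 and 95.37. These 3 were between 1808 and 1997 bp wide, and at the last 2 of them replicate 2 had a single peak where replicate 1 had 4 and the series-wide list 3. The site from 7410016 to 7410547 scored 5.21, 194.07 and 71.98. The remaining sites, from 7406297 to 7406967, from 7411341 to 7411713 and from 7437682 to 7438071, scored 80.57 or less in replicate 1 and 83.32 or less in replicate 2.

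**Figure D5:**
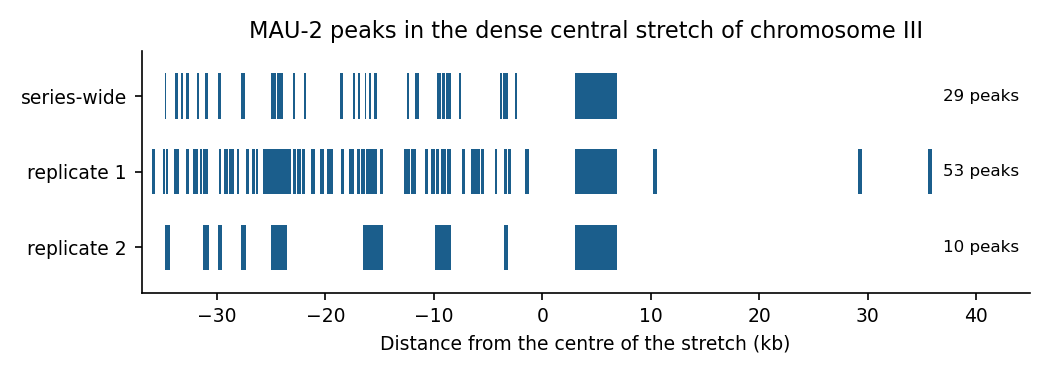
Peaks of the 3 lists in the dense central stretch of chromosome III, as boxes drawn to scale against the distance in kb from the centre of the stretch. Replicate 1 had 53 peaks, the series-wide list 29 and replicate 2 had 10, and the widest block in every list is the site of 3910 bp.

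The same window rule was applied to the other nuclear chromosomes, where the fullest windows differed in the lists that filled them. The stretch of III held 50 sites, with a replicate 1 peak at 44 of them. That of IV held 30 sites, of which 25 were in the series-wide list only and 0 in all lists, with 1 replicate 1 peak. That of II held 18 sites, of which 17 were in the series-wide list only, with 1 replicate 1 peak. That of X held 19 sites, of which 15 were in replicate 1 only, 3 in replicate 1 and the series-wide list and 1 in all lists. That of V held 13 sites, of which 7 were in all lists and 6 in replicate 1 only. That of I held 10 sites, of which 5 were in replicate 1 only and 4 in the series-wide list only. These stretches were chosen by their density, and the difference in list membership between them was not tested.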

How the data were processed

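Per the submitters' processing notes, alignment used BWA and ce10, and the file headers name WormBase build WS220. Peaks were called with MACS, per the caller column of the deposited files, which gives v2 for the series-wide list. Each deposited peak has a score on a scale that no source used here names. How input and thresholds were used, and any pooling of replicates, is not stated in the labels or headers.

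Peaks on III from all 3 lists were pooled and merged at an overlap of 1 bp. For a site with several peaks from a list, the highest score was used. Chromosome length was the highest listed coordinate, 13783731 for III. Shares were compared by two-sided Fisher's exact tests with Benjamini-Hochberg adjustment over 4 tests and exact Clopper-Pearson 95% intervals, which cover counting error only. The mitochondrial peaks were left out of the tests. Without read numbers, depth and its precision are unknown, and p-values measure counts of peaks, not spread between cultures. The method was tested on simulated data. The members, lists and rules were chosen with earlier results of these data known. Named sites are the 20 highest in all 3 lists, the highest of each list, region and class, the 5 widest, the first and last, and those of the dense stretch in all lists; any other site was picked once its values were known. The alternatives comprised reciprocal overlap of 50%, the higher-scoring 50% of each list, merging within 1000 bp, arms of 25%, other windows, each list or replicate alone, scores under 3100, and leaving out the dense stretch or wide and end peaks. Leaving out the dense stretch of every chromosome was added after seeing the data. The software was Python 3.11.15 with scipy 1.17.1, numpy 2.4.6 and pandas 2.3.3, and figures used matplotlib 3.10.9.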

Additional observations from a re-analysis of the deposited data

How the results depend on the processing

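None of the 4 Fisher's exact tests passed the threshold of 0.05 under any alternative run, so the sign of each difference in percentage points carries little weight. III minus the other chromosomes, for series-wide peaks in both replicate lists, was -5.24 and turned to 4.26 in the higher-scoring 50%, 3.26 with peaks within 1000 bp merged and 1.46 without wide and end peaks. Leaving out a replicate gave -6.61 to -4.91. A reciprocal overlap of 50% turned the differences for replicate 1 and replicate 2 peaks to -3.33 and -6.24, and leaving out the dense stretch of every chromosome turned that for replicate 2 to -0.046. Arms minus centre was -1.39 with merged peaks, -4.71 with arms of 25%, and -4.89 to 9.36 when 1 replicate was not required. It was 0.13 without the dense stretch of III and 12.6 in the higher-scoring 50%, against 4.77 in the main setting. The ratio of site density in arms over centre was 0.733. It was 1.24 without the dense stretch, 1.04 with sites within 1000 bp merged and 0.947 with arms of 25%. For peaks of replicate 1 alone it was 0.564 and of replicate 2 alone 0.958. The densest 100 kb held 50 sites, but 29 peaks of the series-wide list and 10 of replicate 2. With sites within 1000 bp merged, the arms went from 176 to 127 sites and the centre from 120 to 61. The dense stretch is central and held 43 gaps under 1000 bp, and the rest of III held 65. Beyond these counts, the cause of the changes was not tested. The number of sites in all 3 lists was 51 with a reciprocal overlap of 50% and 70 with merging. No paired analysis was possible because the input samples were not analysed here, which leaves a single group.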

Other observations

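Beside the dense stretch, chromosome III had 6 runs of 4 or more sites, found by joining sites less than 5 kb apart after the values were seen, and no test was made. In 3 of these runs, most sites were found in 1 list only. In the right arm, a run of 11 sites from 13074947 to 13085066 had a series-wide peak at all 11 sites, a replicate 2 peak at 3 and a replicate 1 peak at 0. The series-wide scores there ran from 1.33 to 7.20, and 8 of the sites were in that list only. A run of 7 sites from 11430705 to 11435147 had a series-wide peak at each, with scores from 2.72 to 7.37, 1 replicate 2 peak with a score of 95.79 and 0 replicate 1 peaks. Between them, a run of 13 sites from 11593462 to 11609498 showed the reverse, with a replicate 1 peak at 12 sites, a series-wide peak at 2 and a replicate 2 peak at 1. The replicate 1 scores of that run ran from 58.22 to 154.78. In the other 3 runs, sites found in 1 list only were not the majority. From 6566877 to 6576943, replicate 1 was present at 4 of 4 sites, replicate 2 at 2 and the series-wide list at 1. From 10220027 to 10227772, the series-wide list and replicate 1 were each present at 3 of 4 sites and replicate 2 at 2. From 13775518 to 13783731, the series-wide list and replicate 2 were each present at 3 of 5 sites and replicate 1 at 2.

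The last 783732 bp of the chromosome, from position 13000000, held 30 sites, of which 11 were in the series-wide list only, 6 in that list and replicate 2, 6 in replicate 1 only, 4 in all lists and 3 in other combinations. The last site, from 13783367 to 13783731, was the highest of those in the series-wide list only, with a score of 29.34, where the class median was 3.55. The first site, from position 1 to 222, was in all 3 lists, with scores of 13.49, 775.07 and 147.43 in the series-wide list, replicate 1 and replicate 2. Input files were not analysed here, so the part that signal also present in input plays at these places was not tested.

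Of the 146 sites in replicate 1 only, 38 lay within 1000 bp of a peak of another list, with a median distance of 14081 bp and a range from 1 to 208847 bp. Of the 32 sites in the series-wide list only, 14 lay within 1000 bp of one, with a median distance of 1429 bp. The highest site in replicate 1 only, from 13224817 to 13225239, scored 288.18. The highest of those shared by the series-wide list and replicate 1, from 8862594 to 8863935, scored 15.59 and 936.63. The highest of those shared by the series-wide list and replicate 2, from 3897060 to 3897769, scored 17.25 and 356.55. The highest in replicate 2 only, from 11004550 to 11004713, scored 66.43.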
